A study of Mus musculus with 4 samples.

Results

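Leukocyte integrins and adhesion molecules were followed in 32Dcl3-Abl1ko cells. The parent 32D line comes from murine bone marrow and needs interleukin-3 (IL-3) to grow, and the Abl1ko derivative carries a CRISPR/Cas9 edit of Abl1, the gene of a tyrosine kinase. The set held 9 genes, chosen by gene name: Itgam, Itgb2, Itgal, Itga4, Itgb1, Itga5, Selplg, Cd44 and Icam1. All 9 were found among the 23756 genes of the deposited table, and all 9 passed edgeR's filter for expression, which kept 16535 genes. RNA depleted of ribosomal RNA was sequenced from Abl1ko cells kept with IL-3 (Abl1ko/IL3+, 2 libraries) and from Abl1ko cells growing without it (Abl1ko/IL3-, 2 libraries). Both groups carry the Abl1 edit, so every difference described here is between edited cells with and without the cytokine, and cells with unedited Abl1 were not analysed here. The study describes populations from 2 guides and single clones selected after puromycin, and the sources used here do not tie a library to a guide or a clone. The design text describes the replicates as biological duplicates, without saying whether they came from separate clones. A p-value here therefore sets a group difference against the spread between these libraries, and whether that includes spread between clones is not known.

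Integrins are pairs of an alpha and a beta subunit that hold leukocytes to other cells and to matrix. The beta-2 subunit Itgb2 (CD18) pairs with Itgam (CD11b) to form Mac-1, an abundant integrin of neutrophils and monocytes, and with Itgal (CD11a) to form LFA-1. The beta-1 subunit Itgb1 pairs with Itga4 to form VLA-4, which binds VCAM-1 and fibronectin in the marrow, and with Itga5 to form the fibronectin receptor VLA-5. Selplg encodes PSGL-1, the ligand on leukocytes for P-selectin. Cd44 is a receptor for hyaluronan, and Icam1 is a ligand of both LFA-1 and Mac-1.

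The libraries held between 48953174 and 60382588 counts, and TMM factors, which correct for composition, ran from 0.901 to 1.08. The 9 genes were deeply covered, with between 780 and 27150 counts in any library. The median gene differed 1.51-fold between the Abl1ko/IL3+ replicates and 1.24-fold between the Abl1ko/IL3- replicates. Abl1 itself had 20.5 and 40.9 CPM (counts scaled to library size and TMM factor) in the Abl1ko/IL3+ libraries and 32.2 and 38.8 CPM in the Abl1ko/IL3- libraries; RNA abundance does not show whether the edit took away the protein. The labels call the cells pre-B cells. The B-cell gene Ms4a1 lay at or below 0.00896 FPKM (fragments scaled by gene length and library depth, as deposited), whereas Cd79b, a chain of the B-cell receptor complex, had 10.9 and 6.24 FPKM with IL-3, against 8.60 and 9.77 without it, Ighm 30.7 and 1.31 against 1.05 and 1.64, and Cd79a 0.431 and 6.41 against 1.01 and 1.07. The 8 B cell markers found summed to between 13.2 and 43.1 FPKM, while the myeloid peroxidase gene Mpo had 527.8 and 345.6 FPKM with IL-3, against 226.8 and 134.9 FPKM without it. The B-cell genes Pax5 and Ebf1 were not analysed here.

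Promoter sequence is shown for 4 genes: Itgam and Icam1, whose levels were high in the same libraries, and Cd44 and Itga5. In CPM, the levels of Cd44 and Itga5 without IL-3 lay above both libraries with IL-3. In FPKM, Itga5 overlapped, with 9.99 and 2.33 with IL-3, against 12.2 and 9.83 without it. Each sequence is the stretch of 250 bases before the RefSeq transcription start in GRCm38.p6, 5′ to 3′ on the strand of the gene. Capitals mark matches, on either strand, to TTCNNNGAA (the palindrome bound by STAT factors, through which IL-3 signals), GAGGAA (a core bound by the myeloid factor PU.1), GGGCGG (SP1), CCAAT (NF-Y) or TTGCNNAA (C/EBP).
Itgam, plus strand, chr7:128062390-128062639: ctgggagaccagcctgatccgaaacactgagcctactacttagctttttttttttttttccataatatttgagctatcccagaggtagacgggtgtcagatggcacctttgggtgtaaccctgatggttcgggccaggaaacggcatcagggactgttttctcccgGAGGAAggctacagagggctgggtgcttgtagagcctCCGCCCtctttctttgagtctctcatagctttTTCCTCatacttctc
Icam1, plus strand, chr9:21015690-21015939: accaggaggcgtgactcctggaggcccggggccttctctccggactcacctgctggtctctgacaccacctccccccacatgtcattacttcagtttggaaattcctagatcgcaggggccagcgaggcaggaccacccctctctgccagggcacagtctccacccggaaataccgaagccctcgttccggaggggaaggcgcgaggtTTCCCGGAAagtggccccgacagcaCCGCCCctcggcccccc
Cd44, minus strand, chr2:102901666-102901915: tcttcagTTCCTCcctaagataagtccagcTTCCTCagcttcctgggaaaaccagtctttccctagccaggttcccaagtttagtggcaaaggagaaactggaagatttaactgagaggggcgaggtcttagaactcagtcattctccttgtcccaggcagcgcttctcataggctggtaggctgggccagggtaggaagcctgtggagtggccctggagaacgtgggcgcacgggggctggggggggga
Itga5, minus strand, chr15:103366792-103367041: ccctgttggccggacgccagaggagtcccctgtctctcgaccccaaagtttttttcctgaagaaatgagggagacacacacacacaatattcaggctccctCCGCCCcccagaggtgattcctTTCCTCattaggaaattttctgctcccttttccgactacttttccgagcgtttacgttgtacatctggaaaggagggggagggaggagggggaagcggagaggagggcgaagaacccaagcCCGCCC

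The Itgam window held GAGGAA at 2 positions, the match beginning at -84 and at -15 from the start, and GGGCGG at 1 position. The Icam1 window held 1 match to TTCNNNGAA, beginning at -42, and 1 to GGGCGG. The Cd44 window held GAGGAA at 2 positions and no GGGCGG, and the Itga5 window held GAGGAA once and GGGCGG at 2 positions. None of the 4 held CCAAT or TTGCNNAA. Over the 32851 promoters of the RefSeq table, 7.02% held TTCNNNGAA, 23.3% GAGGAA, 32.7% GGGCGG, 33.8% CCAAT and 9.56% TTGCNNAA in the same window. In the windows of Itga4 and Itgb1, TTCNNNGAA, CCAAT and TTGCNNAA were not found either, GGGCGG was found once in each, and GAGGAA once in Itgb1. A match describes letters and was not tested as a binding site. Promoters of Itgb2, Itgal and Selplg were not used here.

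Per length of transcript, the 2 subunits of Mac-1 were the most abundant members. FPKM averaged 60.3 over the 4 libraries for Itgb2 and 53.6 for Itgam. Cd44 followed at 26.6 FPKM and Itgb1 at 24.1 FPKM. Below them came Selplg with 12.5, Itga4 with 11.1, Itga5 with 8.58, Itgal with 7.80 and Icam1 with 7.51 FPKM. The least abundant member still stood at percentile 67.3 of all genes tested. The ranges of all neighbours in this order overlapped except those of Itgb1, never under 21.9 FPKM, and Selplg, never above 18.0 FPKM. Itgb2 was first and Itgam second with IL-3, and the order of this pair was the opposite without it. Selplg stood at place 5 with IL-3 and place 8 without it, and Itga5 at place 9 with IL-3 and place 6 without it; these places describe means of 2 libraries each.

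**Figure D1:**
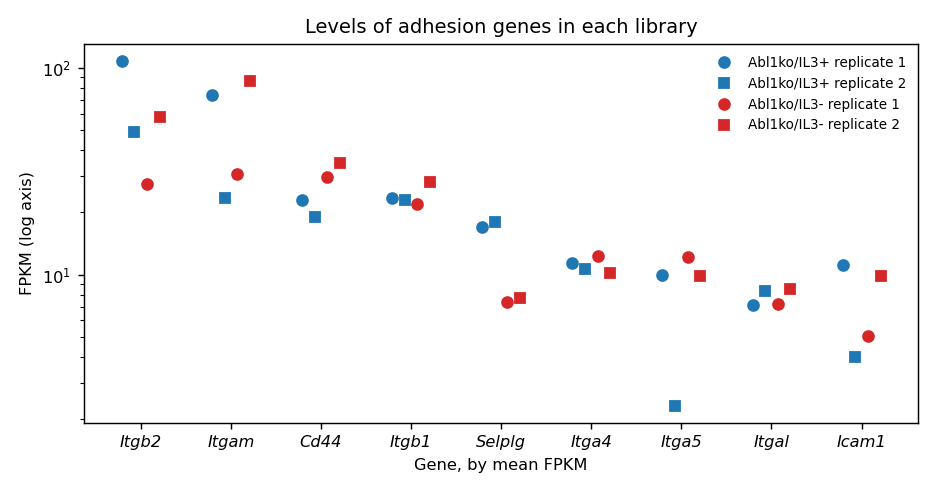
FPKM on a log axis for the 9 genes in each of the 4 libraries (blue, with IL-3; red, without IL-3; circles, replicate 1; squares, replicate 2). Selplg is the only gene whose red points both lie far below its blue points, at 7.38 and 7.73 against 17.0 and 18.0 FPKM.

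Between Abl1ko/IL3- and Abl1ko/IL3+ cells, edgeR (quasi-likelihood test, Benjamini-Hochberg adjustment) put 0 of the 9 genes under an adjusted p-value of 0.05, and 0 of all 16535 genes (0%). Of the 9 genes, 1 (Selplg) had an unadjusted p-value under 0.05, against 5.91% of all genes tested. DESeq2 called 0 of the 9 genes, where it called 1.64% of all genes. The median log2 fold change of the members was 0.014, and that of all genes -0.027. In CPM scaled by TMM, both Abl1ko/IL3- libraries lay above both Abl1ko/IL3+ libraries for 2 genes, Cd44 and Itga5, and below them for 1 gene, Selplg. Over all genes these shares were 19.4% and 17.9%, so that 3 of the 9 members had groups apart in either direction, against 37.3% of all genes. With library size alone or with FPKM, Itga5 overlapped between the groups and 1 gene, Cd44, lay above. The exact permutation test of a single value cannot reach the threshold here, since 2 of the 6 divisions of the libraries into 2 and 2 are always as extreme as the most extreme.

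**Figure D2:**
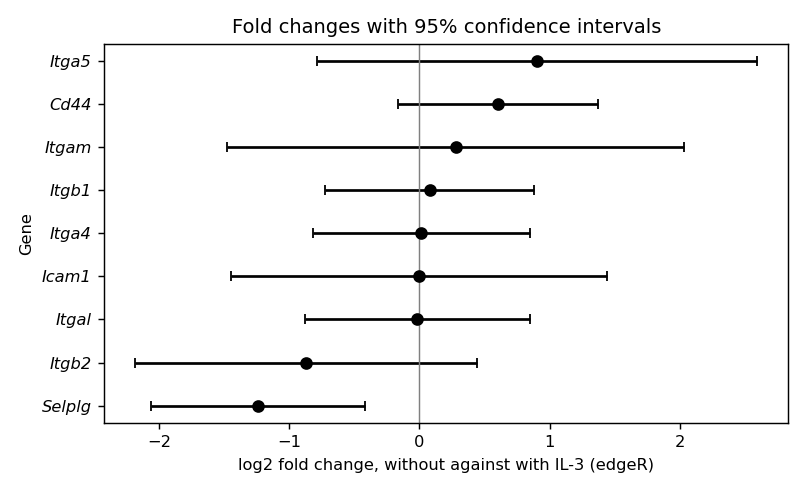
Log2 fold change for the 9 genes (Abl1ko/IL3- over Abl1ko/IL3+), from edgeR; points are estimates and bars 95% confidence intervals over 2 libraries per group. The interval of Selplg, from -2.06 to -0.42, is the only one that leaves out 0 before any adjustment.

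Selplg (ENSMUSG00000048163), on the minus strand of chromosome 5 from 113818536 to 113830501 (GRCm38), had the lowest p-value of the 9 genes. Its level was 75.3 and 96.0 CPM in the Abl1ko/IL3+ libraries and 36.9 and 35.7 CPM in the Abl1ko/IL3- libraries. The replicates differed 1.27-fold with IL-3 and 1.03-fold without it, and the 2 groups were apart. The mean level without IL-3 was 0.424 times that with IL-3. The log2 fold change (Abl1ko/IL3- over Abl1ko/IL3+, here called the log2 difference) was -1.24 (standard error, SE, of 0.32, 95% confidence interval -2.06 to -0.42, unadjusted p = 0.0115, adjusted p = 0.727 in the edgeR test), so it did not pass the threshold over all genes. Leaving out each library in turn gave log2 fold changes between -1.39 and -1.05. In bulk RNA a lower level per cell and fewer cells with the transcript cannot be told apart.

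PSGL-1 binds selectins through sugars that glycosyltransferases add to it, so the genes for selectins and for building selectin ligands were listed with it. Of 19 such genes, 14 could be tested, and 0 passed the adjusted threshold or an unadjusted p-value of 0.05 in edgeR. Their median log2 fold change was -0.37, with 3 genes above 0 and 11 below. In 2 of the 14 both libraries without IL-3 lay above those with it (19.4% of all genes) and in 4 both lay below (17.9% of all genes). The sialyltransferase gene St3gal4 had 299.4 and 280.2 CPM with IL-3, against 191.3 and 217.0 CPM without it, and its groups did not overlap. Spn, encoding the sialomucin CD43, was the most abundant of the list and overlapped between the groups, with 1152 and 758.3 CPM against 830.7 and 876.7 CPM. The galactosyltransferase gene B4galt1 had a log2 difference of 0.02 (SE 0.30).

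Cd44 (ENSMUSG00000005087), on the minus strand of chromosome 2 from 102811141 to 102901665, had nearly equal replicates in each group in CPM. It had 161.2 and 160.8 CPM in the Abl1ko/IL3+ libraries and 235.7 and 253.2 CPM in the Abl1ko/IL3- libraries. The replicates differed 1.002-fold with IL-3 and 1.07-fold without it, whereas the mean without IL-3 was 1.52 times the mean with it. In FPKM, which TMM does not scale, the replicates were less close. Cd44 then had 22.9 and 19.0 with IL-3, against 29.7 and 34.6 without it, and the groups still did not overlap. The log2 difference was 0.60 (SE 0.30, 95% confidence interval -0.17 to 1.37, adjusted p = 0.860 in the edgeR test) and lay between 0.55 and 0.65 when each library was left out. The edgeR test shares its estimate of spread across genes, so a close pair of replicates does not by itself make the interval narrow.

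Among 13 genes for hyaluronan and for the ERM proteins that link CD44 to actin, 9 could be tested, 1 of them with a log2 fold change above 0 and 8 below, with a median of -0.44. None of the 9 reached an adjusted or an unadjusted p-value of 0.05 in edgeR. The scaffold gene Slc9a3r1 had an FPKM of 129.9 and 111.6 with IL-3, against 75.6 and 86.6 without it, and its groups did not overlap. Ezrin, encoded by Ezr, had 58.6 and 23.5 FPKM with IL-3, against 27.5 and 47.0 without it. Moesin, encoded by Msn, overlapped, with 455.0 and 342.4 CPM against 368.4 and 366.1 CPM.

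Itgam (ENSMUSG00000030786), on the plus strand of chromosome 7 from 128062640 to 128118491, varied more between replicates than between groups. It had 386.5 and 147.2 CPM in the Abl1ko/IL3+ libraries and 179.6 and 467.5 CPM in the Abl1ko/IL3- libraries. The replicates thus differed 2.63-fold with IL-3 and 2.60-fold without it, and Abl1ko/IL3+ replicate 1 and Abl1ko/IL3- replicate 2 were the high libraries. The log2 difference was 0.28 (SE 0.68, 95% confidence interval -1.47 to 2.03, adjusted p = 0.982 in the edgeR test). It ranged from -0.57 without Abl1ko/IL3- replicate 2 to 1.15 without Abl1ko/IL3+ replicate 1, so its direction rested on which library was kept. Exons of Itgam overlap those of Gm49368 on the same strand, which had 1, 139, 22 and 3568 counts in Abl1ko/IL3+ replicates 1 and 2 and Abl1ko/IL3- replicates 1 and 2. Adding both genes gave 386.5 and 149.7 CPM with IL-3, against 180.0 and 529.0 CPM without it, with the same libraries high.

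Icam1 (ENSMUSG00000037405), on the plus strand of chromosome 9 from 21015985 to 21028817, followed Itgam across the libraries. It had 50.5 and 21.8 CPM with IL-3, against 25.6 and 46.5 CPM without it. The same 2 libraries were high as for Itgam, and the group means were 36.1 ± 20.3 and 36.1 ± 14.8 CPM (SD, n = 2 libraries). The log2 fold change was -0.0030, with a 95% confidence interval from -1.44 to 1.44, wide enough to leave the direction unknown. Exons of Icam1 overlap those of Gm47079 on the opposite strand, which had between 133 and 201 counts in a library, against at least 1183 counts of Icam1. Whether strand was used in counting is not given in the sources used here.

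**Figure D3:**
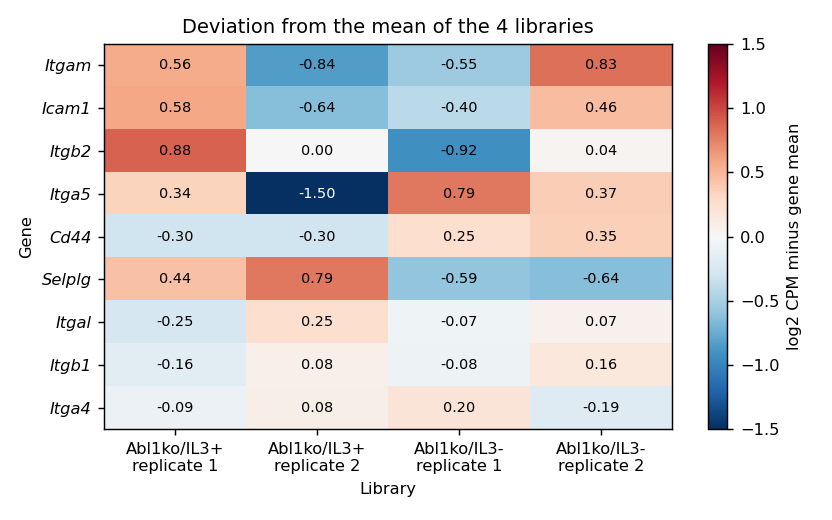
Log2 CPM of each of the 9 genes minus the mean of its 4 libraries, one column per library (red, above the mean; blue, below). Itgam and Icam1 are above their means in replicate 1 with IL-3 and replicate 2 without it, Selplg and Cd44 divide by IL-3, and Itgal, Itgb1 and Itga4 stay within 0.25 of 0.

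Likeness of pattern was measured as the root mean square distance between centred log2 CPM values over the 4 libraries, between each member and 93 other adhesion genes. The nearest genes to Itgam were Skap2, an adaptor of integrin signalling, at a distance of 0.159, and Icam1 at 0.224. For Itgb2 the nearest were Rap1b at 0.313 and Ptk2b at 0.317, for Itga4 Itga2b at 0.101 and Rasgrp2 at 0.111, and for Itgb1 Itgal at 0.106 and Cd63 at 0.121. Nearest to Icam1 was Ezr at 0.111, and nearest to Cd44 was Itga6, the alpha chain of a laminin receptor, at 0.142.

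Markers of mature myeloid cells also differed between libraries, and their part in the levels of Itgam and Icam1 was not tested. All 12 markers of maturing neutrophils were in the table, and their summed FPKM was 951.3 and 338.7 with IL-3, against 921.8 and 4419 without it. The secondary granule gene Ngp, the most abundant of them, had 540.7 and 157.7 FPKM against 426.5 and 3031 FPKM, and the alarmin gene S100a9 had 13.1 and 2.50 FPKM against 230.4 and 656.8 FPKM. The granulocyte transcription factor gene Cebpe had 311.1 and 145.7 FPKM against 125.2 and 230.4 FPKM. Of the 10 neutrophil markers tested, 5 had groups apart, higher without IL-3 (19.4% of all genes), and 5 had an unadjusted p-value under 0.05 (5.91% of all genes), with 0 after adjustment in edgeR. Of these markers, Mmp8 and Retnlg had 0 counts in both Abl1ko/IL3+ libraries. The 10 markers of monocytes and macrophages summed to 123.4 and 16.8 FPKM with IL-3, against 34.5 and 78.7 FPKM without it, with Abl1ko/IL3+ replicate 1 and Abl1ko/IL3- replicate 2 high as for Itgam. The macrophage receptor gene Adgre1 had 59.6 and 11.2 FPKM with IL-3, against 13.8 and 32.5 without it, Cd68 56.7 and 4.60 against 16.8 and 30.1, and Csf1r 6.46 and 0.932 against 3.53 and 10.2. No count of Cx3cr1 was found with IL-3, and none of Ly6c2 without it. The 10 mast cell and basophil markers summed to 1037 and 158.3 FPKM with IL-3, against 304.7 and 274.6 FPKM without it, led by Prss34 (548.1 and 88.3 against 176.7 and 153.1 FPKM), Cpa3 and Fcer1a, and no count of Tpsb2 was found without IL-3. The 8 erythroid and megakaryocyte markers found summed to 279.8 and 7050 FPKM with IL-3, against 3679 and 1954 FPKM without it, mostly from the globin gene Hba-a1 and followed by Gata1 and Klf1, and none had 0 counts in both libraries of a group. The 12 immature myeloid markers summed to 1359 and 1065 FPKM with IL-3, against 819.3 and 668.4 FPKM without it, led by Mpo, Ms4a3 and Csf2rb2. T cell markers (5 found, led by Cd3d, Trac and Cd3g) summed to between 0.422 and 2.66 FPKM. Stromal and endothelial markers (8 found) summed to between 35.1 and 103.4 FPKM, nearly all of it from Pecam1. That gene, also listed here among the integrin ligands, had 102.9 and 34.8 FPKM with IL-3, against 39.1 and 53.7 without it. Pdgfrb and Col1a1, the next in level, averaged only 0.121 and 0.0875 FPKM over the 4 libraries.

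Itgb2 (ENSMUSG00000000290), on the plus strand of chromosome 10 from 77530252 to 77565686, had 340.9 and 185.4 CPM in the Abl1ko/IL3+ libraries and 97.7 and 190.5 CPM in the Abl1ko/IL3- libraries. Abl1ko/IL3+ replicate 2 and Abl1ko/IL3- replicate 2 were nearly level, so the groups overlapped. The log2 difference was -0.87 (SE 0.51, 95% confidence interval -2.18 to 0.44, adjusted p = 0.884 in the edgeR test). It was below 0 whichever library was left out, from -1.43 without Abl1ko/IL3- replicate 2 to -0.35 without Abl1ko/IL3+ replicate 1. Itgal (ENSMUSG00000030830), on the plus strand of chromosome 7 from 127296260 to 127335138, overlapped between the groups, with 48.6 and 68.6 CPM with IL-3, against 55.2 and 60.6 CPM without it. Its log2 fold change was -0.016 (standard error 0.34), and the 95% confidence interval ran from -0.88 to 0.85.

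Scaling a whole library does not move the ratio of a beta subunit to its alpha partners. This ratio was not among the comparisons planned in advance. Itgb2 amounted to 132.3% and 152.8% of the summed FPKM of Itgam, Itgal, Itgax and Itgad in the Abl1ko/IL3+ libraries. In the Abl1ko/IL3- libraries it amounted to 72.2% and 60.9%. In FPKM, Itgb2 was thus above its partners in both libraries with IL-3 and under them in both libraries without it, the means differing by -76 percentage points (without minus with IL-3). In raw counts, which are not divided by length, the same ratio was under 100% in all 4 libraries, at 78.3% and 85.8% with IL-3, against 41.4% and 36.0% without it, and the means differed by -43.3 percentage points. Against Itgam alone and in raw counts, Itgb2 stood at 88.2% and 126.0% with IL-3 and at 54.4% and 40.7% without it, and at 88.2%, 123.8%, 54.2% and 36.0% when the counts of Gm49368 were added to Itgam. Groups that do not overlap are common here, since in CPM 37.3% of all genes tested had them. With 6 possible divisions of the libraries the exact permutation test cannot reach the threshold, so the gap is given as a description. It lay between -86.2 and -65.7 percentage points (without minus with IL-3) when each library was left out.

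Itgam supplied most of the transcripts of beta-2 partners. Its share of the summed FPKM of the 4 alpha subunits was 91.1% and 73.7% with IL-3, against 80.6% and 90.8% without it, so the groups overlapped. The mean share was 3.34 percentage points higher without IL-3, and this difference ranged from -5.41 without Abl1ko/IL3+ replicate 2 to 12.1 without Abl1ko/IL3+ replicate 1. Itgal made up nearly all of the rest. Itgax, which pairs with Itgb2 on dendritic cells and macrophages, had between 12 and 41 counts in a library, and Itgad had 3 counts in Abl1ko/IL3- replicate 2 and 0 counts in the other libraries.

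**Figure D4:**
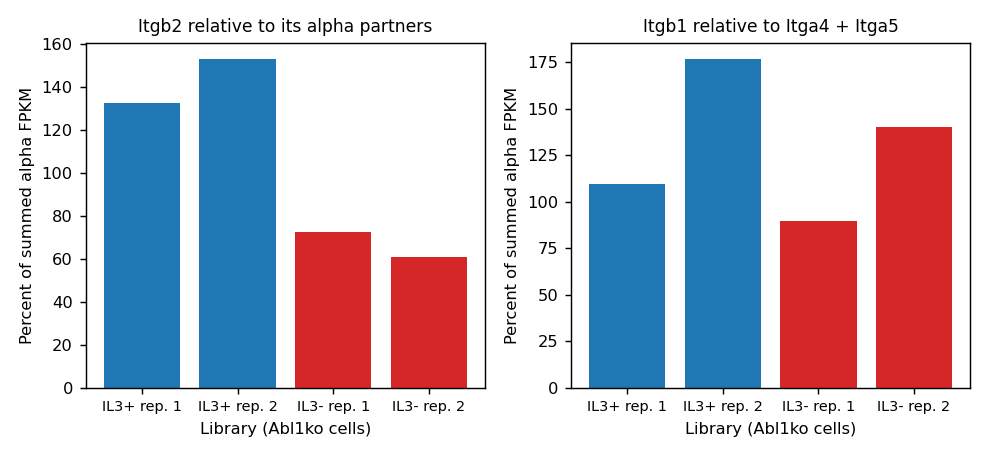
FPKM of a beta subunit as a percentage of the summed FPKM of its alpha partners in each library (blue, with IL-3; red, without), with Itgb2 over Itgam, Itgal, Itgax and Itgad on the left and Itgb1 over Itga4 and Itga5 on the right. On the left both blue bars stand above 100% and both red bars under it, and on the right the groups overlap.

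Itgb1 and Itga4 differed less between replicates than Itgb2 and Itgam did, as did the beta-2 partner Itgal. Itga5 differed more than Itgb2 and Itgam with IL-3, at 3.57-fold against 1.84-fold and 2.63-fold. Without IL-3 it differed less, at 1.34-fold against 1.95-fold and 2.60-fold. Itgb1 (ENSMUSG00000025809), on the plus strand of chromosome 8 from 128685654 to 128733200, had 99.1 and 116.9 CPM with IL-3, against 104.5 and 123.4 CPM without it, a log2 difference of 0.078 (SE 0.31, 95% confidence interval -0.72 to 0.88). Itga4 (ENSMUSG00000027009), on the plus strand of chromosome 2 from 79255426 to 79333123, had 165.1 and 185.8 CPM with IL-3, against 201.1 and 153.3 CPM without it, a log2 difference of 0.014 (SE 0.32, 95% confidence interval -0.82 to 0.85). Both genes overlapped between the groups, and both intervals still allow changes of about 0.8 on the log2 scale. An exon of Itga4 overlaps Cerkl on the opposite strand, which had between 110 and 208 counts in a library, against at least 8903 counts of Itga4.

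Itga5 (ENSMUSG00000000555), on the minus strand of chromosome 15 from 103344286 to 103366763, was set apart by 1 library. It had 51.2 CPM in Abl1ko/IL3+ replicate 1 but 14.3 CPM in Abl1ko/IL3+ replicate 2, a gap of 3.57-fold, and 70.2 and 52.4 CPM in the Abl1ko/IL3- libraries. The log2 difference was 0.90 (SE 0.66, 95% confidence interval -0.79 to 2.59, adjusted p = 0.905 in the edgeR test). Without Abl1ko/IL3+ replicate 2 it was 0.26, and without Abl1ko/IL3+ replicate 1 it was 2.11. The same library stood apart in the balance of the 2 alpha partners, where Itga4 made up 53.2% and 82.1% of the summed FPKM of Itga4 and Itga5 with IL-3, and 50.3% and 50.8% without it. The difference in this share was -17.1 percentage points, -10.2 in raw counts, -2.69 without Abl1ko/IL3+ replicate 2 and -31.5 without Abl1ko/IL3+ replicate 1. Itgb1 amounted to 109.4% and 176.8% of Itga4 plus Itga5 with IL-3 and to 89.5% and 140.1% without it. The means differed by -28.3 percentage points, by -2.83 in raw counts, and by -62 to 5.41 when each library was left out, so neither size nor direction held.

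Some other integrin subunits were as abundant as the members. Of 14 further alpha genes, 9 could be tested, with 7 log2 fold changes above 0 and 2 below and a median of 0.42. Itga2b, which pairs with Itgb3 on megakaryocytes and mast cells, had 94.3 and 99.4 FPKM with IL-3, against 124.2 and 92.2 FPKM without it, above Itgam in each of the 4 libraries. Itgb3 had 47.4 FPKM in Abl1ko/IL3+ replicate 1 and 0.857 FPKM in Abl1ko/IL3+ replicate 2, and 26.4 and 33.3 FPKM without IL-3. Abl1ko/IL3+ replicate 2 was thus low for Itgb3 as it was for Itga5. Itgb7, the other partner of Itga4, had 23.2 and 45.6 FPKM with IL-3, against 21.7 and 25.3 FPKM without it. Of 7 further beta genes, 4 could be tested, with a median log2 fold change of 0.16. In edgeR, 0 of these 13 genes had an adjusted or an unadjusted p-value under 0.05. Itgae had 7.43 and 0.543 FPKM with IL-3, against 1.80 and 2.20 FPKM without it, Itgav 0.783 and 0.152 against 0.198 and 3.76 FPKM, and Itgb4 3.84 and 3.06 against 2.91 and 3.96 FPKM.

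Integrins bind firmly only once proteins inside the cell grip their tails, and 29 genes of this machinery were listed. Of the 25 that could be tested, 9 had a log2 fold change above 0 and 16 below, with a median of -0.25. In 1 of the 25 both libraries without IL-3 lay above those with it (19.4% of all genes) and in 7 both lay below (17.9% of all genes). In edgeR 2 genes, Ilk and Vcl, were under 0.05 before adjustment (5.91% of all genes) and 0 after it. Ilk, the integrin-linked kinase, had 108.3 and 188.2 CPM with IL-3, against 59.6 and 59.1 CPM without it, a log2 difference of -1.32 (SE 0.39, unadjusted p = 0.0199, adjusted p = 0.737 in the edgeR test). Among the adhesion genes Ilk was also the nearest in pattern to Selplg, at a distance of 0.160. Vinculin, encoded by Vcl, had 28.9 and 6.49 CPM with IL-3, against 4.39 and 3.96 CPM without it, a log2 difference of -2.08 (SE 0.79, adjusted p = 0.841 in the edgeR test). Parvg, a parvin that binds ILK in leukocytes, had 248.3 and 243.9 CPM with IL-3, against 155.7 and 161.2 CPM without it, with no overlap. Rap1b, a small GTPase that activates integrins, had 798.0 and 603.0 CPM with IL-3, against 371.9 and 435.3 CPM without it, again with no overlap. Fermt3 (kindlin-3), which the beta-2 integrins of leukocytes need, overlapped, with 589.3 and 342.5 CPM against 325.5 and 352.2 CPM.

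**Figure D5:**
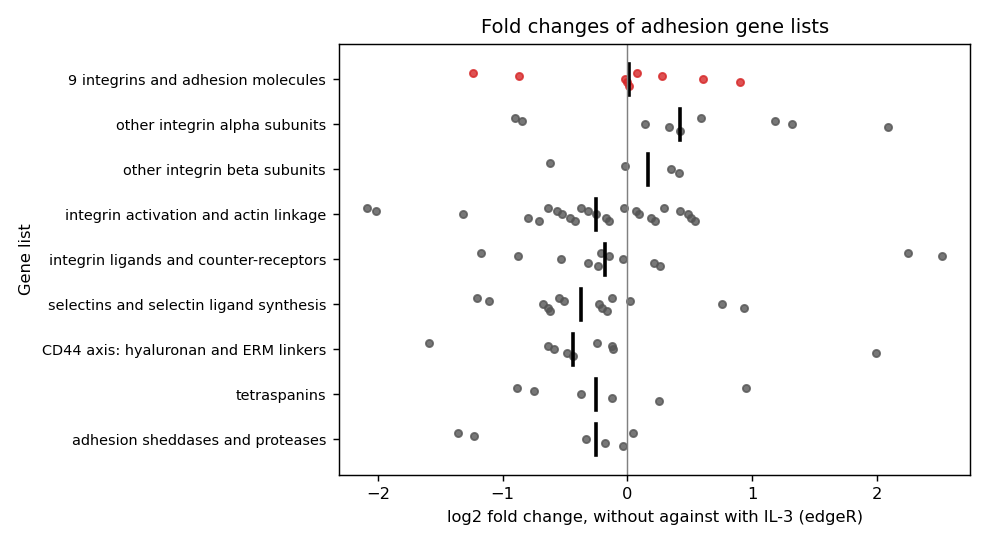
Log2 fold changes (Abl1ko/IL3- over Abl1ko/IL3+) for the 9 genes (red) and for the tested genes of 8 other adhesion lists (grey), from edgeR; black bars are medians. The members' median is 0.014, and the medians of the other lists run from -0.44 to 0.42.

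Ligands, tetraspanins and proteases of cell adhesion completed the lists. Of 16 ligands and counter-receptors, 12 could be tested, with 4 log2 fold changes above 0, 8 below and a median of -0.18. Cd47 was the most abundant, with 160.5 and 91.1 FPKM with IL-3, against 123.4 and 176.6 FPKM without it, followed by Pecam1 (102.9 and 34.8 against 39.1 and 53.7 FPKM) and the LFA-1 ligand Icam2 (13.2 and 30.5 against 30.4 and 22.6 FPKM). Vcam1, the ligand of VLA-4, had 4 counts in Abl1ko/IL3+ replicate 2 and 0 in the other libraries. Of 7 tetraspanins 6 could be tested, with 2 log2 fold changes above 0, 4 below and a median of -0.25. Of the 6, 1 had an unadjusted p-value under 0.05 in edgeR (5.91% of all genes). This was Cd82, at 0.0490 (141.4 and 161.3 CPM with IL-3, 67.5 and 96.3 CPM without it, adjusted p = 0.841 in the edgeR test). Both libraries without IL-3 lay above those with it for 2 of the 6 (19.4% of all genes). These were Cd63 (1071 and 1114 against 886.0 and 945.8 CPM) and Cd53 (107.6 and 190.5 against 105.6 and 49.1 CPM), although Cd53 overlapped in FPKM (52.8 and 101.3 against 58.3 and 22.6). Both libraries without IL-3 lay below for 2 of the 6 (17.9% of all genes), Cd82 and Cd81 (42.3 and 41.6 against 50.1 and 58.4 CPM). Of 8 sheddases and proteases 6 could be tested, with 1 log2 fold change above 0 and 5 below. Adam8, a leukocyte metalloprotease, had 60.2 and 6.69 FPKM with IL-3, against 14.3 and 52.1 FPKM without it, high in the same libraries as Itgam. Adam10 had 60.0 and 17.2 FPKM with IL-3, against 0.637 and 29.6 FPKM without it, and Adam17 25.0 and 11.9 against 17.0 and 18.5 FPKM. Over the 85 tested genes of the 8 lists, 3.53% had an unadjusted p-value under 0.05, all 3 of them with a log2 fold change below 0, against 5.91% of all genes. Without IL-3, 10 of the 85 genes lay above both libraries with IL-3 (11.8%, against 19.4% of all genes) and 19 below them (22.4%, against 17.9%).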

How the data were processed

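RNA-seq counts of 4 libraries were analysed. Per the study's methods the reads were aligned to GRCm38 with Rsubread and counted with featureCounts, and the authors deposited raw counts per gene without normalization, whereas the submitters' processing notes name STAR, Cuffdiff and mm10. The authors also deposited FPKM values, and the tool behind them is not given in the sources used here. Dividing the counts by FPKM gave nearly the same gene length in each library (within 1.04-fold for 99% of the 12946 genes reaching 20 counts throughout), so both columns hold one measurement.

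Groups and replicate numbers came from the labels, which name no batch. Replicates were not the same library deposited again (chi-square per degree of freedom 647.6 and 246.1), so all were kept. The fit used edgeR 4.0.16 in R 4.3.3 (filterByExpr, TMM, quasi-likelihood F test, two-sided, Benjamini-Hochberg over 16535 genes, threshold 0.05). Standard errors came from the fold change and F. CPM in the text is scaled by TMM. Alternatives were DESeq2 1.42.0, limma 3.58.1 on log2(FPKM + 1) and log2(FPKM + 0.1), library size alone, other filters, a replicate block and leaving out each library. The edgeR fit was tested on simulated counts in which 200 genes were changed. With the spread of these data it recovered 0 of 200 genes changed 4-fold. It recovered 123 of 200 changed 8-fold, with 14 false calls, and 199 of 200 changed 64-fold, with 15 false calls. With a low spread it recovered 200 of 200 at 4-fold, with 6 false calls. A gene that was not called here may therefore still have changed.

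The members and lists were chosen with earlier results of these data known. Named genes were the members, the 3 most abundant genes of each list, genes of the adhesion lists with an unadjusted p-value under 0.05, and the 2 nearest in pattern to Itgam, Itgb2, Itga4 and Itgb1; others were named after their values were seen. Genes of the lists missing from the table were not analysed here. Promoters are from RefSeq (GRCm38.p6), where 6 of the 9 members matched by symbol, and exon overlaps from GENCODE M21.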

Additional observations from a re-analysis of the deposited data

How the results depend on the processing

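No member passed the adjusted threshold under any alternative run, and 88 of 108 pairs of a member and an alternative kept the direction of the fold change. The other 20 changed sign. Itgal moved to 0.042 with library size alone, 0.020 and 0.022 with limma on log2(FPKM + 1) and log2(FPKM + 0.1), and Icam1 to 0.0035 with 10 counts in every library, and to 0.054 and 0.0735 in the limma fits. Leaving out each library gave ranges of -0.57 to 1.15 for Itgam, -0.49 to 0.74 for Icam1, -0.23 to 0.26 for Itgal, -0.19 to 0.20 for Itga4 and -0.042 to 0.20 for Itgb1, and a median of the members from -0.079 to 0.19. These fits leave 1 group with a single library, which is assumed to vary like the other group.

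With the replicate number as a block, edgeR called 0 genes (548 at an unadjusted p-value under 0.05, against 978), Itgal was 0.0032 and Icam1 0.058, and Selplg was -1.23 (unadjusted p = 0.0576, adjusted p = 0.9998). The numbers did not pair the libraries (correlation of same-numbered deviations -0.221). A crossed pairing, added once the data had been seen, gave 0 calls, Itgal 0.0032, Icam1 0.058 and Itgb2 -0.88 (unadjusted p = 0.0447, adjusted p = 0.580 or more for every member).

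DESeq2 called 271 genes and no member, and leaving out each library gave 0 to 22 calls in edgeR (22 without Abl1ko/IL3- replicate 1, 1 without Abl1ko/IL3- replicate 2). The cause was not tested. Members wholly above the libraries with IL-3 numbered 1 with library size alone and 1 with FPKM instead of 2. With a library left out they numbered 3 to 4, and those wholly below 2 to 3, since fewer libraries then have to be apart. The share over all genes was not computed for these alternatives, so nothing about the members is read from these counts. In raw counts the gap in Itgb2 against its alpha partners was -43.3 percentage points, since counts are not divided by length. Members had at least 780 counts in each library, and each group held 2 libraries.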
